A study of Mus musculus with 5 samples.

Results

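The SR splicing factors analysed here were *Srsf1*, *Srsf2*, *Srsf3*, *Srsf4*, *Srsf5*, *Srsf6*, *Srsf7*, *Srsf9*, *Srsf10* and *Srsf11*, 10 of 20365 gene names in the SLAMseq tables of mouse cardiac fibroblasts (CF). They were taken by gene name, and each gene was represented by the 3′ UTR interval whose mean CPM over the labeled libraries was highest. All 10 were measured in all 5 libraries. The CF came from hearts of adult healthy male wildtype C57Bl/6J mice, were isolated by collagenase perfusion and were grown to confluency in culture. In 3 libraries (labeled replicates 1, 2 and 3), CF had received 0.1 mM 4-thiouridine (S4U), a uridine analog, for 12 h. In 2 libraries (unlabeled replicates 1 and 2), CF were kept in parallel for the same time without S4U, and the RNA of both groups was alkylated. The cells were therefore cultured, unstimulated CF, and no infarcted heart was part of the comparison. Alkylated S4U is read as C in place of T, so the T>C conversion rate, conversions divided by covered T positions, rises with the portion of a transcript made during labeling.

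SR proteins carry RNA recognition motifs and a domain rich in arginine and serine. They bind enhancer sequences in exons, help the spliceosome to recognize splice sites, and many also act in mRNA export, polyadenylation or translation. Kinases of the SRPK and CLK families phosphorylate them and so control where they are in the nucleus and when they act. Many SR genes adjust their own level through alternative exons that expose the transcript to nonsense-mediated decay. In the heart, SR proteins are known for their part in the splicing of contractile and calcium handling genes in cardiomyocytes.

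Reads of these libraries come from near the poly(A) tail, so each value belongs to the 3′ end of a transcript. The sequences below are 30 bases in the sense of the transcript, 5′ to 3′, read from GRCm39, and are shown because they lie at the 3′ ends of the intervals used. Except for parts of the *Srsf10* interval, where along the interval each read lay was not analysed here. Capitals mark the poly(A) signal letters AATAAA or ATTAAA found closest to the interval's end, with AATAAA taken first. *Srsf2* and *Srsf1* had the highest levels, *Srsf3* is the other gene with ATTAAA, *Srsf4* had the lowest T>C rate, and *Srsf10* had the highest T>C rate and lies on an end with nested intervals.
Srsf1: tgggagtgAATAAAaagctgttaatttgga
Srsf2: gtagtttgATTAAAgtgttttcttggtgtt
Srsf3: agattattATTAAAagacactgacttaaag
Srsf4: taaatttgAATAAAgactatttttgcttga
Srsf10: gagagtaaAATAAActggtctaggagcttt
They lie at chr11:87944547-87944576 on the plus strand (*Srsf1*), chr11:116740741-116740770 on the minus strand (*Srsf2*), chr17:29262315-29262344 on the plus strand (*Srsf3*), chr4:131628983-131629012 on the plus strand (*Srsf4*) and chr4:135597179-135597208 on the plus strand (*Srsf10*). In the last 50 bases of the interval, on the transcript strand only, AATAAA was found in 7 of the 10 SR genes and in 64.0% of 19783 genes. ATTAAA, counted on its own whether or not AATAAA was there too, was found in 2 of the 10 and in 17.9% of the genes. Neither run of letters was found in this window of *Srsf9*.

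The intervals differed in length. On GRCm39, the interval of *Srsf1* (ENSMUSG00000018379.19) is chr11:87940096-87944583, with 4488 bases. It spans the 3′ UTRs of several isoforms, overlaps coding sequence of alternative isoforms and ends 2 bases past the annotated gene, and all of its reads also lay in a shorter interval of 4151 bases. The other 9 intervals lie inside the last exon and the annotated UTR of an isoform. They are chr11:116740730-116742853 for *Srsf2* (ENSMUSG00000034120.20), chr17:29260386-29262346 for *Srsf3* (ENSMUSG00000071172.15), chr4:131628384-131629036 for *Srsf4* (ENSMUSG00000028911.18) and chr12:80996753-80997281 for *Srsf5* (ENSMUSG00000021134.19). For *Srsf6* (ENSMUSG00000016921.16) the interval is chr2:162776678-162779041, for *Srsf7* (ENSMUSG00000024097.13) chr17:80507509-80508976 and for *Srsf9* (ENSMUSG00000029538.16) chr5:115470779-115471139. For *Srsf10* (ENSMUSG00000028676.19) it is chr4:135594498-135597219 and for *Srsf11* (ENSMUSG00000055436.20) chr3:157716552-157717645. *Srsf2*, *Srsf7* and *Srsf11* lie on the minus strand. *Srsf3*, *Srsf7* and *Srsf9* overlap coding sequence of another of their isoforms. No interval overlaps another gene on its strand, whereas *Srsf2* overlaps *Mettl23* and *Mfsd11*, *Srsf3* overlaps *Trp53cor1*, *Srsf4* overlaps *Gm12992*, *Srsf5* overlaps *Slc10a1* and *Srsf9* overlaps *Gatc* on the opposite strand. Whether the counting used strand is not given in the sources used here. Parts of the intervals of *Srsf2*, *Srsf3*, *Srsf5*, *Srsf10* and *Srsf11* have a near-identical copy elsewhere in the genome, the longest for *Srsf10* with 1601 aligned bases at 97.8% identity, so the reads of these 5 genes are uncertain to that extent. The tables list 0 multimapped reads.

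The number of reads counted on 1 interval per gene in labeled replicates 1, 2 and 3 was 1576048, 1194971 and 506045, respectively, and the unlabeled replicates had 1843033 and 996143. The SR factors took 2640, 1849 and 723 of these reads in the labeled and 3214 and 1513 in the unlabeled libraries, between 0.143% and 0.174%. The summed level of 10 fibroblast markers (among them *Col1a1*, *Dcn* and *Pdgfra*) was 33895 to 45010 CPM and all 10 were detected. That of 7 cardiomyocyte markers was 0.634 to 9.03 CPM with *Myh7* and *Ryr2* at 0, and 5 endothelial markers reached 96.4 to 214 CPM. The 7 immune markers summed to 54.6 to 104 CPM with *Cd3e* at 0, the 4 mural markers to 4.02 to 13.8 CPM, and the 4 epicardial markers to 0.543 to 5.93 CPM with *Msln* and *Krt19* at 0. Fibroblast markers were at 41399, 41521 and 45010 CPM in labeled and 33895 and 37192 CPM in unlabeled libraries, without overlap. Epicardial markers did not overlap either, with 3.81, 5.02 and 5.93 CPM in labeled and 0.543 and 1.00 CPM in unlabeled libraries. These epicardial sums rest on very few reads per library and are imprecise. Among 4846 single genes with a mean of at least 50 reads, every labeled level was above both unlabeled levels in 7.92%. The other cell types overlapped between the groups. The cause of these differences was not tested. In bulk RNA, fewer cells of a type and less RNA per cell cannot be told apart.

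Levels are given in CPM, the reads of an interval scaled to a common total of counted reads. A read stands for a transcript end and does not grow in number with transcript length, so the levels were not divided by length. Their median level was 155 CPM, compared to 31.7 CPM over 11189 genes with a read in every library. Between the highest and the lowest SR factor, the labeled mean differed 4.54-fold. In the labeled libraries, the genes fell into an upper group of 5 (*Srsf2*, *Srsf1*, *Srsf5*, *Srsf3*, *Srsf6*), with no value below 157 CPM, and a lower group of 5 (*Srsf7*, *Srsf9*, *Srsf11*, *Srsf4*, *Srsf10*), with no value above 144 CPM.

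*Srsf2*, which stays mainly in the nucleus and activates exon inclusion, was measured at 245, 265 and 283 CPM in the labeled and at 277 and 274 CPM in the unlabeled libraries. Its labeled mean of 264 ± 18.9 CPM (SD, n = 3) was the highest, and all 5 values were close together. *Srsf1*, the founding member of the family and a shuttling factor that also promotes nonsense-mediated decay, was at 409, 189 and 186 CPM in labeled and 390 and 159 CPM in unlabeled libraries. Here, the libraries numbered 1 of both groups were high and the other 3 low, so that the labeled mean of 261 ± 128 CPM did not differ from that of *Srsf2* beyond this spread. *Srsf5*, a regulator of exon inclusion, was at 270, 198 and 196 CPM in labeled and 323 and 268 CPM in unlabeled libraries. The groups overlapped, as the highest labeled value was above the lower unlabeled one.

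*Srsf3*, the smallest SR protein, which links splicing to polyadenylation and export, was at 157, 240 and 190 CPM in labeled and 167 and 216 CPM in unlabeled libraries. *Srsf6*, a splicing enhancer known from the control of tau and other exons, was at 222, 194 and 164 CPM in labeled and 194 and 161 CPM in unlabeled libraries. In both genes the unlabeled values lay within or next to the labeled ones. From *Srsf6* (193 ± 29.0 CPM) to *Srsf7* (116 ± 18.2 CPM), the labeled values dropped without overlap, and this was the only step between neighbours in the order that did so.

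*Srsf7*, which has a zinc knuckle and takes part in export, was at 133, 117 and 96.8 CPM in labeled and 154 and 92.4 CPM in unlabeled libraries. *Srsf9* was at 38.1, 136 and 144 CPM in labeled and 61.3 and 162 CPM in unlabeled libraries. Its pattern was opposite to that of *Srsf1*: both libraries numbered 1 were low. In unlabeled replicate 2, *Srsf9* with 162 CPM was level with *Srsf6* (161 CPM) and *Srsf1* (159 CPM), so the division into an upper and a lower group did not hold there.

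*Srsf11* was at 71.7, 89.5 and 57.3 CPM in labeled and 65.1 and 94.4 CPM in unlabeled libraries. *Srsf4*, one of the longest SR proteins, was at 49.5, 56.1 and 79.0 CPM in labeled and 41.2 and 45.2 CPM in unlabeled libraries. It was the only SR factor for which each labeled level exceeded both unlabeled levels. This was the case in 7.92% of the 4846 genes with a mean of at least 50 reads, and each labeled level was below both unlabeled levels in 13.8% of them but in 0 SR factors. *Srsf10*, which represses splicing when dephosphorylated, was at 79.9, 61.1 and 33.6 CPM in labeled and 72.2 and 48.2 CPM in unlabeled libraries. The labeled means of *Srsf11* (72.8 ± 16.1 CPM), *Srsf4* (61.5 ± 15.5 CPM) and *Srsf10* (58.2 ± 23.3 CPM) did not differ beyond their spread.

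**Figure D1:**
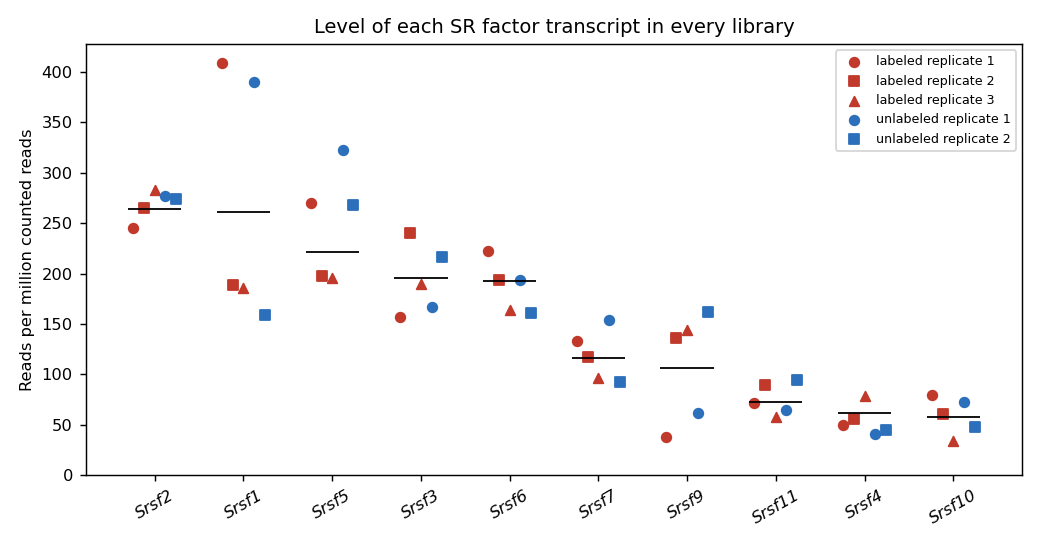
Level of each SR factor (y axis, CPM relative to counted reads) in the 3 labeled (red) and 2 unlabeled (blue) libraries, one point per library, with genes in the order of the labeled mean (black line). *Srsf2* values lie between 245 and 283 CPM, whereas *Srsf1* and *Srsf9* split by the replicate number in opposite directions.

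The order of the genes depended on the scale and on single libraries. With the deposited CPM, and with reads summed over all intervals, 4 of the 10 kept their rank. Summing counts nested reads more than once. It put *Srsf7* (231 CPM) above *Srsf3* (196 CPM) and *Srsf6* (193 CPM), so the division into an upper and a lower group did not hold there. *Srsf1* was first and *Srsf2* second with the deposited CPM, and also without labeled replicate 2 or without labeled replicate 3. Without labeled replicate 1, *Srsf1* was at rank 4. The deposited CPM divides by a larger number of reads per library than was counted on the intervals, and gave a labeled mean of 25.5 CPM for *Srsf1* and 4.67 CPM for *Srsf4*.

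After 12 h with S4U, all 10 SR factor transcripts carried T>C conversions far above the unlabeled background. Mean labeled rates lay between 0.0311 (*Srsf4*) and 0.0434 (*Srsf10*), a 1.39-fold range that was narrow beside the 4.54-fold range of levels. The median over the SR factors was 0.0394, and it was 0.0390, 0.0396 and 0.0377 in labeled replicates 1, 2 and 3. The 4390 genes that were covered with at least 426 T positions in every library, as deeply as the least covered SR factor, had a median of 0.0388, quartiles at 0.0347 and 0.0422 and 5th and 95th percentiles at 0.0187 and 0.0473. Of the SR factors, 8 lay inside these quartiles, 1 above (*Srsf10*) and 1 below (*Srsf4*).

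*Srsf10* had labeled rates of 0.0423, 0.0385 and 0.0493, with a mean of 0.0434 ± 0.00548 (SD, n = 3). The rate in labeled replicate 3 rested on 21 conversions in 426 covered T positions (exact 95% binomial confidence interval 0.0308 to 0.0744), so the highest point was also the least precise. *Srsf11* followed with 0.0369, 0.0425 and 0.0461, *Srsf9* with 0.0427, 0.0362 and 0.0448 and *Srsf7* with 0.0435, 0.0423 and 0.0366. The means of these 4 genes, 0.0434, 0.0418, 0.0413 and 0.0408, were closer to each other than the SD of each. All 4 belong to the lower group by level, but so does *Srsf4*, which had the lowest rate of the SR factors (0.0311). With the unlabeled mean subtracted, *Srsf9* was at rank 8.

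The 5 genes of the upper group by level were tightly grouped by rate as well. *Srsf6* was at 0.0392, 0.0395 and 0.0409, *Srsf2* at 0.0396, 0.0415 and 0.0355, and *Srsf5* at 0.0388, 0.0399 and 0.0379. *Srsf3* was at 0.0386, 0.0397 and 0.0374 and *Srsf1* at 0.0360, 0.0375 and 0.0376. *Srsf1*, whose level differed more than 2-fold between labeled replicates 1 and 2, thus had one of the smallest spreads in rate (0.0370 ± 0.000911, SD, n = 3).

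*Srsf4* had rates of 0.0267, 0.0357 and 0.0309, from 38 conversions in 1423, 57 in 1598 and 31 in 1003 covered T positions. Its mean of 0.0311 ± 0.00449 was at percentile 14.9 of the genes covered as deeply. It was the lowest SR factor in each of the 3 labeled libraries. All 3 values lay below the lowest value of *Srsf1* (0.0360), the next gene in the order, but the exact 95% interval of *Srsf4* in each library (0.0190 to 0.0365, 0.0271 to 0.0460 and 0.0211 to 0.0436) overlapped that of *Srsf1* (0.0329 to 0.0392, 0.0324 to 0.0431 and 0.0296 to 0.0471). These intervals cover counting error only and treat each T position as independent.

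**Figure D2:**
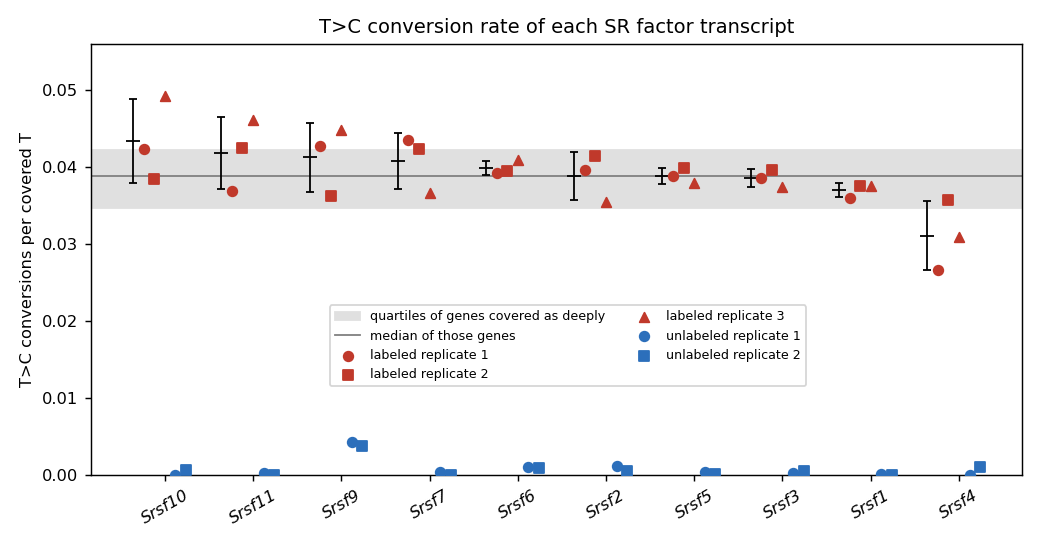
T>C conversion rate (y axis, conversions per covered T position) of each SR factor in the labeled (red) and unlabeled (blue) libraries, one point per library; black bars are the labeled mean ± SD (n = 3), and the grey band and line are the quartiles and median of the 4390 genes covered as deeply. Labeled values lie between 0.0267 and 0.0493, and the unlabeled values of *Srsf9* stand above those of the other genes.

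In the unlabeled libraries, the SR factors had a median T>C rate of 0.000374, against 0.000525 for the genes covered as deeply. No conversion was seen in 5 of 20 unlabeled values, for which the limit given is 3 conversions divided by the covered T positions, a lower limit than the upper bound of an exact 95% interval. These were *Srsf1* in replicate 2 (0 of 3529 covered T positions, which allows a rate of up to 0.000850), *Srsf4* in replicate 1 (0 of 1546, up to 0.00194), *Srsf7* in replicate 2 (0 of 2545, up to 0.00118), *Srsf10* in replicate 1 (0 of 3601, up to 0.000833) and *Srsf11* in replicate 2 (0 of 2543, up to 0.00118). The highest rates other than those of *Srsf9* were 0.00126 for *Srsf2* and 0.00113 for *Srsf6* in replicate 1.

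*Srsf9* stood apart in both unlabeled libraries. It had 9 conversions in 2098 covered T positions in replicate 1 and 13 in 3383 in replicate 2, a rate of 0.00429 (exact 95% interval 0.00196 to 0.00813) and 0.00384 (0.00205 to 0.00656). The mean of 0.00407 was at percentile 98.2 among the genes covered as deeply, and 7.96% and 8.07% of the unlabeled *Srsf9* reads carried a conversion. With the unlabeled mean subtracted, the labeled rate of *Srsf9* was 0.0372 instead of 0.0413, and its rank among the SR factors moved from 3 to 8. *Srsf10*, *Srsf11*, *Srsf1* and *Srsf4* kept ranks 1, 2, 9 and 10.

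In the beta-binomial likelihood-ratio test of labeled against unlabeled libraries, the T>C rate was raised in 10 of 10 SR factors at an unadjusted p below 0.05, the threshold of the study. Unadjusted p ranged from 8.86e-08 (*Srsf6*) to 2.36e-05 (*Srsf4*), and p from 5.69e-06 to 6.75e-05 after Benjamini-Hochberg adjustment of the beta-binomial test over all intervals tested. For each of the 10, all 3 labeled rates exceeded both unlabeled rates. The test called 95.2% of 11179 genes with 1 interval per gene and 94.6% of all 19240 intervals, so the count of SR factors does not set them apart from other transcripts.

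The same labeling can be read per sequenced read. A median of 59.7% of the labeled SR factor reads carried at least 1 conversion, against 52.9% of the reads of the genes covered as deeply. The mean share over the labeled libraries was highest for *Srsf11* (57.5, 64.5 and 75.9%) and lowest for *Srsf4* (38.5, 56.7 and 52.5%). This order did not hold in each library. *Srsf7* (65.7%) was above *Srsf11* in labeled replicate 1, and *Srsf9* (50.3%) was below *Srsf4* in labeled replicate 2. A read with a conversion carried a median of 1.62 conversions, against 1.54, from 1.42 in *Srsf4* to 1.78 in *Srsf10*. The share of reads also depends on how many T positions a read covers. SR factor intervals were richer in T (median 35.2% of bases) than those of the genes covered as deeply (30.5%), with 28.6% in *Srsf4* at the low end and 37.2% in *Srsf7* at the high end. A labeled read covered 19.9 T positions in *Srsf9* and 26.9 in *Srsf7*. The part of T content in these shares was not tested.

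*Srsf10* had nested intervals with a common start. The shorter one ends 74 bases before the one used, and these last 74 bases (chr4:135597146-135597219) hold the signal printed above. The T positions in this last stretch had labeled rates of 0.0310, 0.0337 and 0.0263, whereas those in the shared 2648 bases had 0.0474, 0.0406 and 0.0543. The last stretch was thus lower in each of the 3 labeled libraries. Pooled over them, it had 52 conversions in 1640 covered T positions (0.0317, exact 95% interval 0.0238 to 0.0414) and the shared part 178 in 3895 (0.0457, 0.0394 to 0.0527), so the intervals of counting error overlapped. The shared part took 99, 57 and 13 of the 126, 73 and 17 labeled reads. A further *Srsf10* interval upstream, chr4:135591338-135593129, had 26, 13 and 6 labeled and 22 and 16 unlabeled reads and a pooled labeled rate of 0.0462. The difference between the parts was seen after the values were known and was not tested.

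No change of SR factor reads with S4U was detected in fits that do not use the replicate number. In edgeR's quasi-likelihood test, 0 of 10 SR factors passed a Benjamini-Hochberg adjusted p below 0.05, 0 had an unadjusted p below 0.05, and DESeq2 also called 0. Over all 9807 genes tested, edgeR called 0% at the adjusted and 5.97% at the unadjusted threshold. The 0 of 10 therefore does not set the SR factors apart from other genes. With the replicate number as a block, edgeR called 11.7% of all genes and 0 SR factors at the adjusted threshold. That fit is given in the last section, with its limits. The log2 fold change of reads, labeled against unlabeled, had a median of 0.02 over the SR factors and 0.02 over all genes.

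*Srsf4* had the largest difference with all 5 libraries, 0.57 (SE 0.34, 95% interval -0.22 to 1.37), with the lowest adjusted p of 0.961 in edgeR's test (Benjamini-Hochberg). Without labeled replicate 3 it was 0.36, and without unlabeled replicate 1 it was 0.45, where *Srsf1* (0.75) and *Srsf9* (-0.59) differed more. Without unlabeled replicate 2 it was 0.68, and *Srsf9* differed more with the sign turned (0.91). *Srsf5* was on the other side with -0.34 (SE 0.25, -0.92 to 0.25), and *Srsf6* was at 0.21 (SE 0.24, -0.36 to 0.78). The narrowest interval belonged to *Srsf2*, 0.02 (SE 0.23, -0.53 to 0.57). The widest belonged to *Srsf9* with -0.01 (SE 0.66, -1.56 to 1.54) and *Srsf1* with 0.02 (SE 0.47, -1.10 to 1.14). Fold changes of *Srsf3*, *Srsf7*, *Srsf10* and *Srsf11* lay between -0.05 and 0.10. In this fit, which does not use the replicate number, 2-fold changes in either direction were inside the intervals of *Srsf1* and *Srsf9*, and a 2-fold rise was inside that of *Srsf4*.

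**Figure D3:**
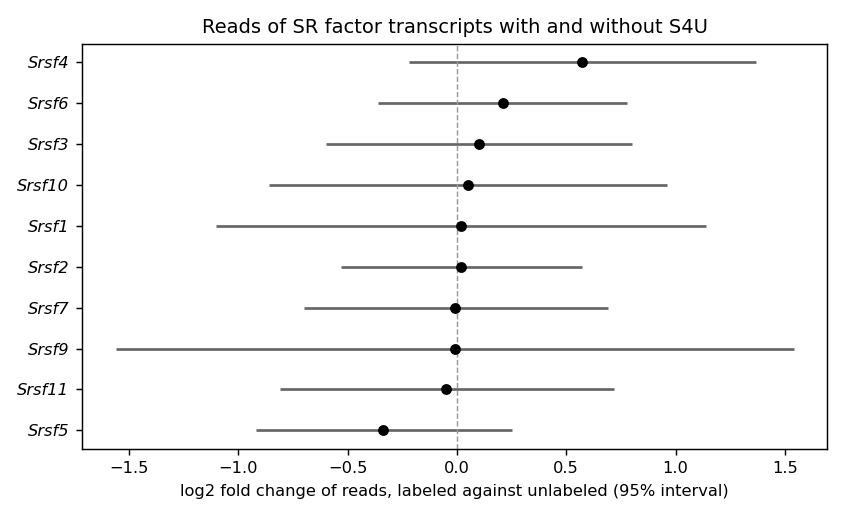
log2 fold change of reads of each SR factor (x axis), labeled against unlabeled libraries, with the 95% interval of edgeR's quasi-likelihood fit (3 against 2 libraries). All 10 intervals include 0, and those of *Srsf9* and *Srsf1* are the widest.

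Levels also varied with the replicate number. The labels number the libraries 1 to 3 and 1 to 2. Per the study's methods, unlabeled CF were incubated in parallel, but no source says that a number marks a shared preparation. Labeled and unlabeled replicate 1 were compared with the other 3 libraries after the values were seen, as a description without a test. *Srsf1* averaged 399 CPM in the libraries numbered 1 and 178 CPM in the others, a mean difference of 1.17 in log2(CPM + 1). *Srsf10* differed by 0.70, *Srsf7* by 0.49 and *Srsf5* by 0.43, each with both libraries numbered 1 above the other 3.

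In the other direction, *Srsf9* averaged 49.7 CPM in the libraries numbered 1 and 147 CPM in the others, a difference of -1.59, and *Srsf3* differed by -0.40. Among 4846 genes with a mean of at least 50 reads, *Srsf1* was at percentile 95.4 and *Srsf9* at percentile 3.16 of this difference. The remaining 4 genes (*Srsf2*, *Srsf4*, *Srsf6*, *Srsf11*) overlapped. Such a split was common, as both libraries numbered 1 lay above the other 3 in 36.9% of these genes and below them in 21.4%, so the 4 and 2 SR factors are near this background. The libraries numbered 1 were also the most deeply counted ones, and the summed levels in them were 54.6 and 59.7 CPM for the immune markers, against 77.1 to 104 CPM in the others, and 0.634 and 2.17 CPM for the cardiomyocyte markers, against 5.93 to 9.03 CPM. Endothelial markers (96.4 and 137 CPM against 109 to 214 CPM) and mural markers (10.2 and 7.05 CPM against 4.02 to 13.8 CPM) overlapped, as did fibroblast markers (41399 and 33895 CPM against 37192 to 45010 CPM) and epicardial markers (3.81 and 0.543 CPM against 1.00 to 5.93 CPM). The study's CF isolation spins out cardiomyocytes and removes cells positive for CD31 or CD45, markers of endothelial and immune cells, with magnetic beads. The part of depth and of other cells in this split was not tested.

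**Figure D4:**
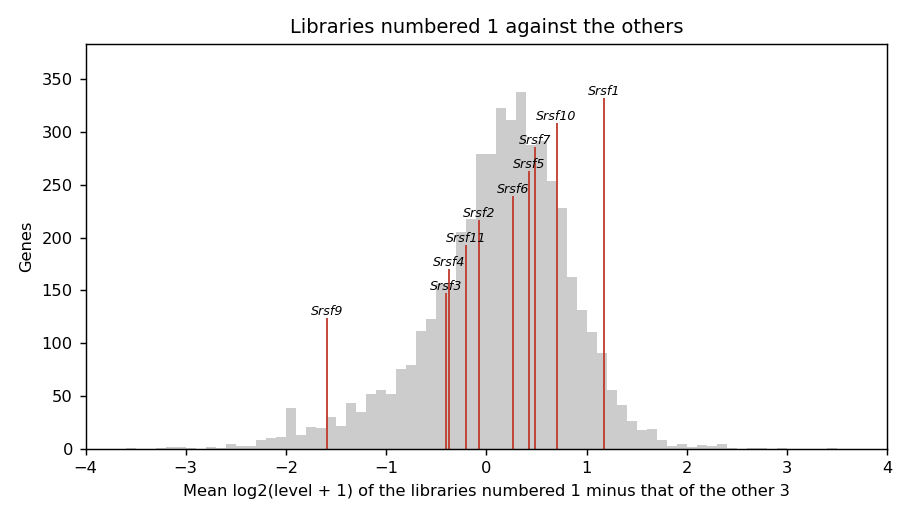
Number of genes (y axis, grey bars, 4846 genes with a mean of at least 50 reads) by the mean difference in log2(CPM + 1) between the libraries numbered 1 and the other 3 libraries (x axis). Red lines mark the SR factors (their height has no meaning), from *Srsf9* at -1.59 to *Srsf1* at 1.17.

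Other genes around SR protein function were followed with a list of 38 genes, all of which are named in the tables. No read was counted for *Srsf12*, a further SR protein, and *Srpk3*, a muscle kinase of SR proteins, and *Rnps1*, a splicing coactivator, had a mean of 0.913 CPM in the labeled libraries. The T>C rate was raised in 35 of the 35 genes that could be tested, again close to the background of 95.2%. For the reads, 0 of 35 passed edgeR's test at a Benjamini-Hochberg adjusted p below 0.05 (lowest adjusted p 0.589), DESeq2 called 0, and the median log2 fold change was 0.07, with 20 genes above and 15 below 0. At an unadjusted p below 0.05, 1 gene was higher and 1 lower in edgeR's test, 2 of 35 next to 5.97% of all genes.

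The 17 covered SR-like splicing regulators and coactivators had levels from 30.6 to 219 CPM and a median T>C rate of 0.0410. Of the genes that had 1000 or more covered T positions in each library, *Rbm39* (0.0486 ± 0.00344), a coactivator that binds the core spliceosome, *Son* (0.0454 ± 0.00670), a scaffold of nuclear speckles, and *Tra2a* (0.0451 ± 0.00634), an exon enhancer binding protein, had the highest rates. *U2af1*, the subunit that reads the 3′ splice site (0.0360 ± 0.00299), *Srrm1*, a coactivator of exon recognition (0.0364 ± 0.00277), and *Tnpo3*, the importin of SR proteins (0.0371 ± 0.00351), had the lowest (all SD, n = 3). The 9 genes so covered had a median of 0.0388. *Tnpo3* had unlabeled rates of 0.00473 and 0.00239. With the unlabeled mean subtracted, it was at 0.0336, below *U2af1* (0.0353) and *Srrm1* (0.0362).

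The 8 covered kinases had levels from 10.6 to 59.8 CPM, a median T>C rate of 0.0373 and rates from 0.0204 to 0.0468. The lowest was that of *Srpk1*, which rested on 20, 11 and 5 labeled reads with rates of 0.0344 and 0.0169 in replicates 1 and 2 and 1 conversion in 100 covered T positions in replicate 3, and is therefore imprecise, and the next kinase was *Clk2* with 0.0304. Both covered transport factors, *Tnpo3* and the export receptor *Nxf1*, were at 279 and 23.0 CPM. The 8 factors of nonsense-mediated decay had levels from 18.7 to 64.0 CPM and a median rate of 0.0398. The log2 fold change of reads was above 0 in 10 and below 0 in 7 of the regulators. It was above 0 in 2 and below in 6 of the kinases. In the decay factors it was above 0 in 7 and below in 1, among them *Upf3a* at 0.09 (SE 0.35). These directions were not tested, and the median over all genes was 0.02. None of these groups held a gene that passed in this fit, which does not use the replicate number.

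*U2af1* and *Srpk2*, an SR protein kinase, were the 2 genes of the list under an unadjusted p of 0.05. *U2af1* was at 101, 92.1 and 94.9 CPM in labeled and 55.3 and 39.2 CPM in unlabeled libraries, with a log2 fold change of 1.09 (SE 0.28) and an edgeR adjusted p (Benjamini-Hochberg) of 0.589. *Srpk2* was at 72.3, 51.9 and 49.4 CPM in labeled and 106 and 96.4 CPM in unlabeled libraries, with -0.72 (SE 0.28) and an adjusted p of 0.782 by the same edgeR test with Benjamini-Hochberg adjustment. This fit does not use the replicate number. A fit with the number as a block called both genes and is given in the last section, with its limits. Of the 21 genes of the list with a mean of at least 50 reads, every labeled level was above both unlabeled levels in 2 (*U2af1* and *Rbm39*) and below them in 3 (*Srpk2*, *Srrm1* and *Rbm25*), next to 7.92% and 13.8% of all genes read as often.

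**Figure D5:**
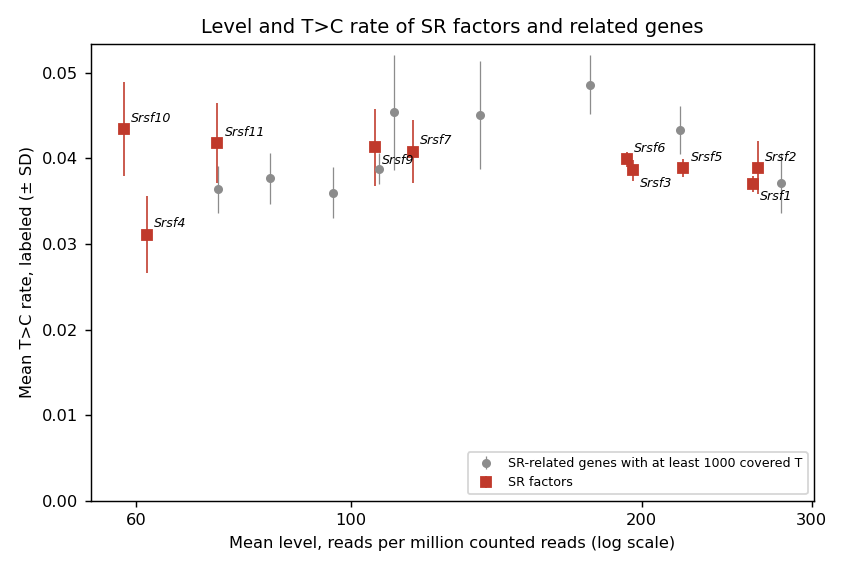
Mean T>C rate in the labeled libraries (y axis, ± SD, n = 3) against mean level (x axis, CPM relative to counted reads, log scale) for the 10 SR factors (red) and the 9 SR-related genes that had 1000 or more covered T positions in each library (grey). *Srsf4* is the lowest point at 0.0311 and the highest grey point, *Rbm39*, is at 0.0486.

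Outside both lists, the genes whose levels were most like the median SR factor across the 5 libraries were *Pa2g4*, *Prpf39*, *Ifi27*, *Plin3* and *Fblim1*. Likeness was the root mean square difference in log2(CPM + 1), centred within each gene, over 4815 genes. It was 0.0539, 0.0546, 0.0555, 0.0595 and 0.0600 for these 5 genes. The median SR factor deviated by 0.04, 0.08 and -0.22 in the labeled and by 0.05 and -0.09 in the unlabeled libraries, so this profile was nearly flat, and labeled replicate 3 was the lowest.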

How the data were processed

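SLAMseq libraries were read from the SLAM-DUNK 0.4.3 tables of the 5 samples. Per the labels and methods, the authors extracted UMI, mapped to mm39 and deduplicated with umi-tools. The authors deposited unnormalized counts of reads, covered T positions and conversions for each interval. The deposited rate is a fraction, conversions over covered T positions. The deposited CPM divides by between 10975173 and 14616278 reads per library, and CPM were recomputed here on the reads counted on 1 interval per gene.

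Repeated rows (97442 rows, 40428 distinct intervals) were used once. Among intervals with the same highest mean CPM, the longest was used. The T content of 20329 of 20329 intervals matched GRCm39, and positions are counted from 1. Genes were annotated with GENCODE, and copies of at least 95% identity were found with minimap2 2.31. For T>C rates, a beta-binomial likelihood-ratio test was used (1 shared overdispersion, 1 degree of freedom, two-sided, at least 1 covered T in every library). Reads were compared with edgeR 4.0.16 (quasi-likelihood, TMM, filterByExpr, Benjamini-Hochberg) in R 4.3.3. DESeq2 1.42.0, limma 3.58.1 and Python 3.11.15 were used for alternatives and tables. The tests were tried on simulated data.

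The members and lists were chosen with earlier results of these data known. All SR factors were named; of the SR-related list, the 3 highest and 3 lowest rates among genes with at least 1000 covered T positions and those passing the read test, and the 5 genes most alike in level. *U2af1* and *Srpk2* were also named after their read values were seen. Replicates of a group differed by a chi-square per degree of freedom of 2.20 to 18.2, more than counting noise, so none was taken for a copy of another. This spread may be technical, and p-values measure no more than it. The study gives n = 3 CF preparations for its SLAMseq transcriptome, and 3 libraries were labeled. No source ties a replicate number to a preparation. Intervals from covered T positions hold counting error only. They treat each T position as independent although 1 read covers many, so they may be too narrow. Alternatives were other size factors, DESeq2, no filter, limma on log odds (pseudocount 0.5), coverage, adjusted p, summed intervals, the replicate number as a block, background subtraction and each library left out.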

Additional observations from a re-analysis of the deposited data

How the results depend on the processing

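The 10 SR factors and 35 SR-related genes with a raised T>C rate stayed raised with Benjamini-Hochberg adjustment, limma, summed intervals and each library left out. With 1000 or more covered T positions in each library, 6 and 9 genes were left to test and all were raised, since fewer genes were tested. The median SR factor rate of 0.0394 became 0.0384 minus the unlabeled rate and 0.597 as the share of reads with a conversion, another quantity. No SR factor passed a read test under any alternative. Small log2 changes turned sign. With library totals, *Srsf1*, *Srsf2* and *Srsf10* were at -0.07, -0.06 and -0.02, with all genes at a median of -0.06. With reads summed over intervals, which counts nested reads more than once, *Srsf10* was at -0.04. Leaving out 1 library moved *Srsf1* between -0.46 and 0.75, *Srsf2* between -0.04 and 0.08, *Srsf3* between -0.11 and 0.35, *Srsf4* between 0.36 and 0.72, *Srsf5* between -0.49 and -0.25, *Srsf6* between 0.11 and 0.30, *Srsf7* between -0.29 and 0.36, *Srsf9* between -0.59 and 0.91, *Srsf10* between -0.22 and 0.32 and *Srsf11* between -0.34 and 0.29. The extremes of *Srsf1* and *Srsf9* came without an unlabeled library, where the lone one is assumed to vary like the labeled ones. The cause was not tested.

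With the replicate block (1 residual degree of freedom), edgeR called 1146 of 9807 genes (11.7%), 528 higher and 618 lower, against 0 without it. The blocked edgeR fit called 0 SR factors and 3 SR-related genes, *U2af1* at 1.07 (Benjamini-Hochberg adjusted p = 1.08e-05), *Srpk2* at -0.64 (0.0145) and *Upf1* at 0.73 (0.0364). *Srsf2*, *Srsf7* and *Srsf11* were at -0.06, 0.08 and 0.09, *Srsf1* was at 0.20 (95% interval -0.10 to 0.51), *Srsf10* at 0.28 and *Srsf4* at 0.34. *Srsf9* had the largest blocked difference, -0.38 (-0.75 to -0.01, edgeR unadjusted p = 0.0433, Benjamini-Hochberg adjusted p = 0.192). Without the block, DESeq2 called 10 genes higher and 4 lower, and 0 of both lists. The deviations of same-numbered libraries from their group means correlated at 0.88 for number 1 and 0.77 for number 2 across genes, and labeled replicate 3 with unlabeled replicate 2 at 0.64. With 2 unlabeled libraries their deviations mirror each other, so these values are not independent and do not show pairing. The samples share only a number, as no source ties it to a preparation. Depth, 506045 counted reads in labeled replicate 3, limits the rates of *Srsf10* (426 covered T positions), *Srsf11* (802) and *Srsf4* (1003) most.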
